A study of Mus musculus with 6 samples.

Results

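Non-fibrillar collagens outside type IV were examined in 2 cultured mouse podocyte lines, labelled wildtype and knockout of the adaptor genes Nck1 and Nck2. The set was fixed by name: the beaded filament chains Col6a1, Col6a2 and Col6a3, the network chains Col8a1 and Col8a2, the fibril-associated (FACIT) genes Col12a1, Col14a1 and Col16a1, and the multiplexins Col15a1 and Col18a1. Each gene was read from the probe set that carried only its symbol, and all 10 were measured among 30702 genes. Each had 1 such probe set.

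The study profiled total RNA on Affymetrix arrays from a wildtype podocyte line and a line labelled NCK1/2 knockout, both conditionally immortalized, after 10 days of differentiation on a substrate of type I collagen. Podocytes are the glomerular epithelial cells whose foot processes cover the kidney's filtration barrier, and Nck1 and Nck2 link phosphorylated receptors such as nephrin to actin assembly. Each line was represented by 3 arrays, numbered as replicates. The labels do not say that these came from separate cultures and name no parental clone, number of clones or batch, so p-values measure only the spread between these arrays, which may be technical, and genotype and line cannot be told apart.

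Collagens are trimeric matrix proteins, and the non-fibrillar types do not form the thick cross-striated fibrils themselves. Collagen VI is built from an alpha1, an alpha2 and an alpha3 chain, and its tetramers join end to end into beaded microfibrils near cell surfaces. Collagen VIII forms short-chain lattices in vessel walls and in Descemet's membrane of the eye. FACIT collagens sit on the surface of fibrils, and the multiplexins XV and XVIII are proteoglycans of basement membrane zones whose C-terminal pieces are released as endostatin-type fragments. In the glomerulus, collagen XVIII is a known component of the basement membrane and collagen VI of the mesangial matrix.

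Values are log2 probe set intensities, normalized by the authors, and a log2 difference is knockout minus wildtype. Array medians ran from 6.73 to 6.81, and the correlation of arrays across genes was 0.993 to 0.997 within a line and 0.978 to 0.985 between lines. Over all genes, 3669 (12.0%) passed an adjusted p of 0.05 by limma, 1551 higher (5.05%) and 2118 lower (6.9%) in knockout. Leaving out wildtype replicate 3 gave 2079 such genes, knockout replicate 1 gave 2232 and knockout replicate 2 gave 2311. After each chromosome's median was subtracted, 2374 were higher and 1794 lower, with the median of all genes moving from 0.01 to 0.05. The highest of the array's 23 background probe sets had a mean of 7.78, and a gene mean at or below it is called within the background range, although this does not show that the gene is silent. Nck1 fell from 8.63 ± 0.10 to 8.12 ± 0.06 (mean ± SD, n = 3 each; limma adjusted p = 0.00391), and Nck2 was at 7.48 ± 0.13 and 7.24 ± 0.04 (adjusted p = 0.0941), within the background range. The positions of these probe sets relative to the deleted parts are not known. The lines also differed in Xist, at 12.19 and 6.01, and in the Y-linked Uty, at 5.21 and 9.90. Knockout Xist and wildtype Uty lay within the background range. Wildtype thus showed the female pattern of these genes and knockout the male pattern, so sex and genotype cannot be told apart either. Of the podocyte markers, Synpo (8.73 and 8.75) and Podxl (8.31 and 8.40) lay above the background range in wildtype and knockout, whereas Nphs1, Wt1 and Ptpro lay within it on either side. A sixth marker, Plce1, rose by 3.12 from the background range.

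Of the 10 collagen genes, Col12a1, Col8a1, Col6a2 and Col6a1 rose in the knockout line, Col18a1 fell, and the other 5 did not pass the test. The 5 calls stand beside 12.0% of all genes called, and the 2 that were at least 2-fold beside 1.67%. Among all 11877 genes with a group mean above the background range, the share called was 24.9%, and 6 of the 10 collagen genes were in that class, including all 5 that passed. Col6a2 was in the class through its knockout mean only, so its rise itself placed it there. The changes were 2.67-fold for Col12a1, 2.65-fold for Col8a1, 1.46-fold for Col6a2 and 1.32-fold for Col6a1, and knockout Col18a1 was at 0.599 of the wildtype level. The 5 genes that passed were also the 5 whose arrays did not overlap between lines, where 27.4% of all genes showed no overlap. The median log2 difference of the 10 genes was 0.08, against 0.01 for all genes. In bulk RNA, a change in the level per cell and a change in the share of expressing cells cannot be told apart.

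**Figure D1:**
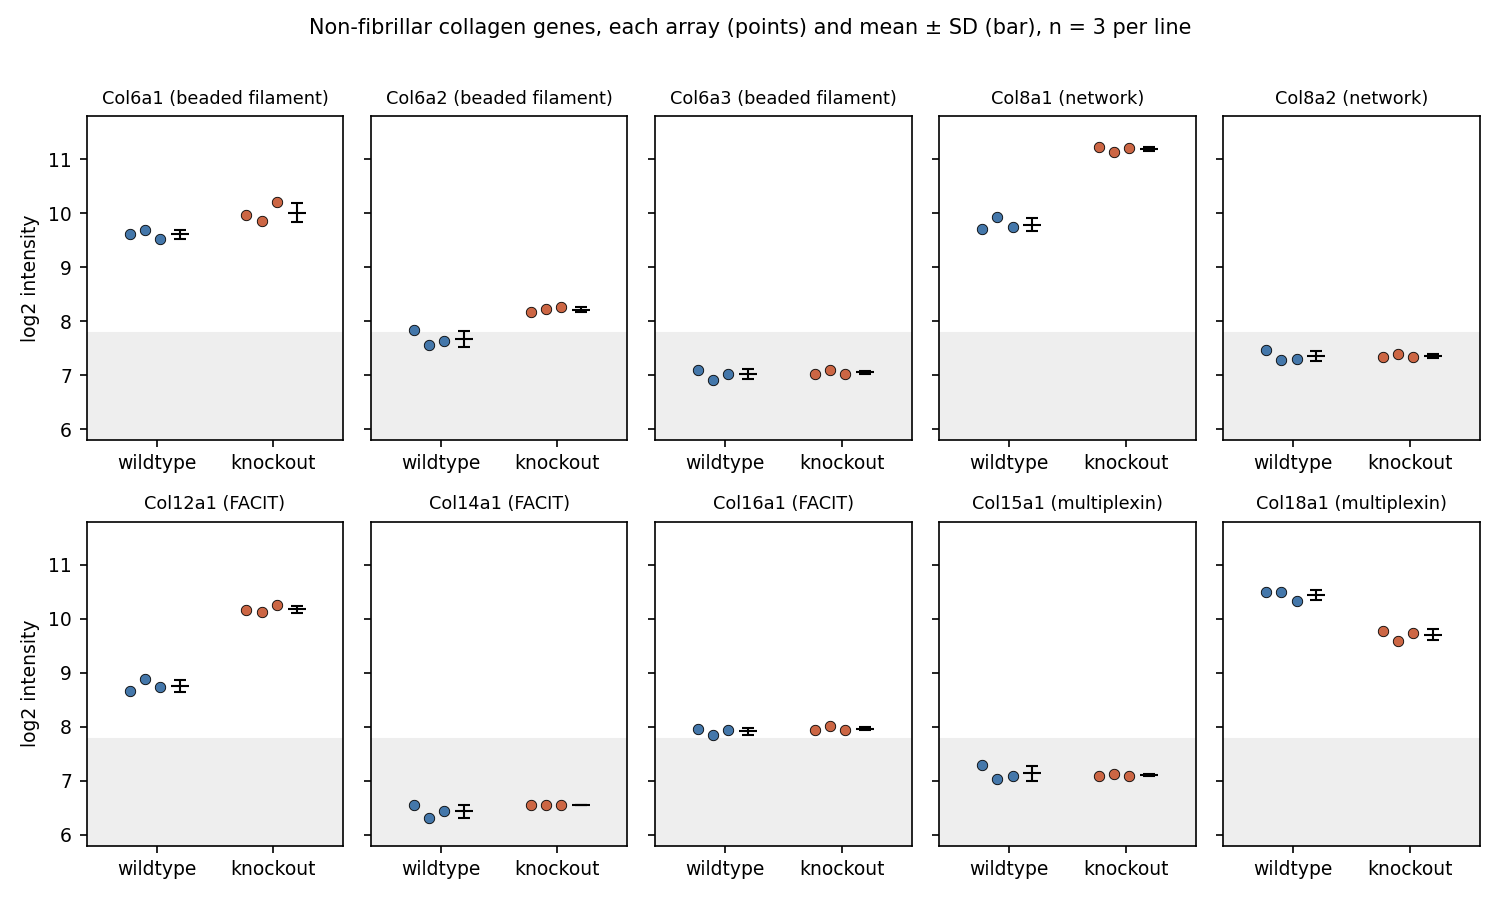
Log2 intensity (vertical axis) of each of the 10 genes in wildtype (blue) and knockout (orange) arrays; points are arrays, the bar beside them is the mean ± SD of 3, and the grey band is the range up to the highest background probe set at 7.78. Col8a1 and Col12a1 are higher in all 3 knockout arrays, Col18a1 is lower in all 3, and Col6a3, Col8a2, Col14a1 and Col15a1 lie inside the grey band in both lines.

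Collagen XII, encoded by Col12a1, is a FACIT collagen that binds the surface of type I fibrils and is made by cells of tendon, ligament and other tissues under tension. Col12a1 (probe set TC0900002735.mm.1, chromosome 9) was at 8.67, 8.88 and 8.73 in wildtype replicates 1, 2 and 3 and at 10.17, 10.12 and 10.25 in knockout replicates 1, 2 and 3. Every knockout array lay above every wildtype array, and both lines lay above the background range. The log2 difference was 1.42 (SE 0.07, limma adjusted p = 0.000103; 95% confidence interval of the fold 2.37 to 3.01). Col12a1 was among the 168 genes, 0.547% of those tested, with a log2 difference at least that high. The other FACIT genes did not pass. Collagen XIV, which like collagen XII binds fibrils and is common in skin and tendon, is encoded by Col14a1 (TC1500000395.mm.1, chromosome 15), which was at 6.55, 6.32 and 6.44 in wildtype and at 6.55 in each knockout array. Its knockout values were identical to each other and to wildtype replicate 1, so the knockout spread is not measured there, and both lines lay within the background range (log2 difference 0.11, 95% confidence interval -0.05 to 0.27, limma adjusted p = 0.409). Col16a1 (TC0400001539.mm.1, chromosome 4), whose product occurs in small amounts in several connective tissues, was at 7.96, 7.85 and 7.94 in wildtype and at 7.95, 8.01 and 7.95 in knockout. The lines overlapped, just above the background range, with a log2 difference of 0.05 (95% confidence interval -0.07 to 0.17, limma adjusted p = 0.674).

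Collagen VIII chains form lattices through their C-terminal globular domains, and the alpha1 and alpha2 chains can assemble as homotrimers or together. Col8a1 (TC1600001764.mm.1, chromosome 16) was at 9.70, 9.92 and 9.74 in wildtype and at 11.22, 11.14 and 11.21 in knockout, the lines lying far apart and both above the background range. Its log2 difference was 1.40 (SE 0.07, limma adjusted p = 0.000101; 95% confidence interval of the fold 2.36 to 2.98). On chromosome 16 the median difference of the brighter protein-coding genes ran the other way, at -0.12. Col8a2 (TC0400001460.mm.1, chromosome 4), the partner chain, was at 7.46, 7.29 and 7.30 in wildtype and at 7.34, 7.39 and 7.34 in knockout. Those values overlapped within the background range (log2 difference 0.01, 95% confidence interval -0.14 to 0.15, limma adjusted p = 0.978). Within arrays, the log2 distance from Col8a2 to Col8a1 was 2.24, 2.63 and 2.44 in wildtype and 3.88, 3.75 and 3.88 in knockout. Because Col8a2 lay within the background range in both lines, its own change was not measured, and these distances restate the rise of Col8a1.

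Col8a1 was the gene with values most like those of Col12a1. With each gene centred on its own mean over the 6 arrays, Col8a1 had the smallest Euclidean distance to Col12a1 of 30701 genes compared, at 0.07 on the log2 scale. The next were Cdc42ep3, an effector of the small GTPase Cdc42 (0.14), the Rac exchange factor gene Dock5 (0.15), the ganglioside synthesis gene St8sia1 (0.17; wildtype mean within the background range) and the actin bundler gene Fscn1 (0.19). These 5 genes rose by 1.36 to 1.51, and since the distance is made up mostly of the step between the lines, it says little of the replicates. Within wildtype both collagens were highest in replicate 2, and within knockout both were lowest in replicate 2. Col6a1 and the integrin gene Itga5, among others, showed the same order, so it is not particular to this pair.

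The promoter window of Col8a1 is shown because it is the most changed gene of the set with an entry in the RefSeq promoter table (GRCm38.p6, 250 bases before to 50 after the start site), at chr16:57754688-57754987 on the minus strand. Capitals mark matches to the GC box GGGCGG on either strand.

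Col8a1: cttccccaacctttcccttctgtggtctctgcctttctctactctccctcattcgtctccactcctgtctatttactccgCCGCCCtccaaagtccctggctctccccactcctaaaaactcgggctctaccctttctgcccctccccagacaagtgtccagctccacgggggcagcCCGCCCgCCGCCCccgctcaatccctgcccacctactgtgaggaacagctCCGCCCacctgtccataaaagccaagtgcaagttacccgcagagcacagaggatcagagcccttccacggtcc

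The window held 4 GC boxes, beginning 170, 73, 66 and 23 bases before the start site, and 60.3% of its bases were G or C. Of all 32851 windows in the table, 35.7% held a GC box, and their median G and C content was 52.7%. The table has no entry for Col12a1 or Col14a1.

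Of the collagen VI genes, those of the alpha1 and alpha2 chains rose and that of the alpha3 chain did not pass. Col6a1 (TC1000002406.mm.1, chromosome 10) was at 9.62, 9.68 and 9.52 in wildtype and at 9.96, 9.86 and 10.21 in knockout. The lowest knockout array lay above the highest wildtype array, and the knockout arrays were spread more widely, with SDs of 0.18 and 0.08. The log2 difference was 0.40 (SE 0.10, limma adjusted p = 0.0476). This call was lost without any 1 of the 6 arrays (limma adjusted p from 0.0536 to 0.177). It was also lost with arrays centred again on their medians (0.0745), with chromosome medians taken off (0.0513) and with the replicate number as a block (0.0685).

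Col6a2 (TC1000002405.mm.1, chromosome 10) was at 7.83, 7.56 and 7.62 in wildtype, with a mean within the background range, and at 8.17, 8.22 and 8.25 in knockout, above it. The groups did not overlap, and the log2 difference was 0.54 (SE 0.08, limma adjusted p = 0.00664). Since the wildtype mean did not exceed the highest background probe set, the fold depends on a level that may be background. Col6a3 (TC0100002789.mm.1, chromosome 1), the largest chain of the trimer, was at 7.10, 6.92 and 7.03 in wildtype and at 7.03, 7.09 and 7.03 in knockout. Both lines lay within the background range and overlapped (log2 difference 0.03, 95% confidence interval -0.11 to 0.18, limma adjusted p = 0.862), and knockout replicates 1 and 3 shared a value with wildtype replicate 3.

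The changes of Col6a1 and Col6a2 were set against each other within arrays. They differed by -0.14 on the log2 scale (exact two-sided permutation p = 0.5, also after Benjamini-Hochberg adjustment over 4 chain pairs; the smallest that 3 against 3 arrays allow is 0.1), less than the SDs of their within-array distance, 0.17 in wildtype and 0.16 in knockout. The wildtype Col6a2 mean in this comparison lay within the background range. The other 3 pairs held Col6a3 or Col8a2, whose changes were not measured above background. They were tested and enter the adjustment (exact permutation p = 0.1 each), but are not read as differences between chains.

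**Figure D2:**
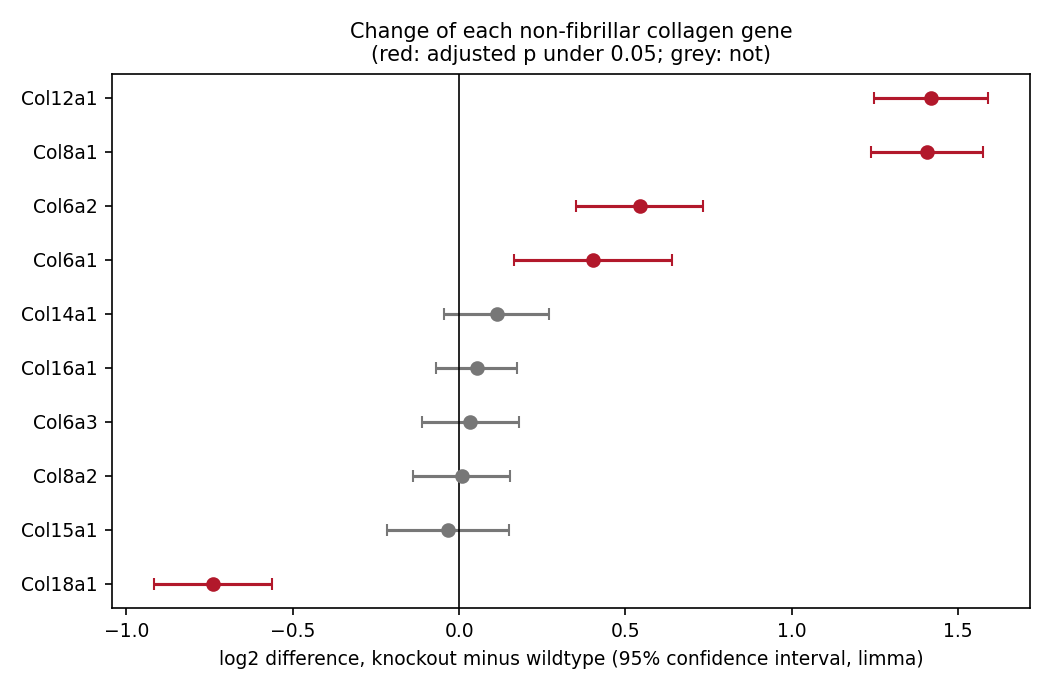
Log2 difference between knockout and wildtype (horizontal axis) for each gene with its limma 95% confidence interval, red where the adjusted p is under 0.05 and grey where it is not. Col12a1 (1.42) and Col8a1 (1.40) stand to the right, Col18a1 (-0.74) to the left, and the intervals of the 5 grey genes include 0.

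The start regions of the 2 collagen VI genes that rose are shown because they lie next to each other on chromosome 10 and moved in the same direction. Both are from the RefSeq table (GRCm38.p6, minus strand), Col6a2 at chr10:76623355-76623654 and Col6a1 at chr10:76725995-76726294. Capitals mark matches on either strand to the GC box GGGCGG, the AP-1 motif TGANTCA and the TEAD motif GGAATG, letters known to be bound by Sp1, by Fos-Jun dimers and by the YAP-bound TEAD factors.

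Col6a2: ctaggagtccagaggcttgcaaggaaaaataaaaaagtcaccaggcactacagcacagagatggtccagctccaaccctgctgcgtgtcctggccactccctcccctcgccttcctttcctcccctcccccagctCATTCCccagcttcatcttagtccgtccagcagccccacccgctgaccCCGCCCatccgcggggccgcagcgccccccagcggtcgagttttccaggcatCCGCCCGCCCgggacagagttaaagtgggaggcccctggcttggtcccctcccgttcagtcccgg
Col6a1: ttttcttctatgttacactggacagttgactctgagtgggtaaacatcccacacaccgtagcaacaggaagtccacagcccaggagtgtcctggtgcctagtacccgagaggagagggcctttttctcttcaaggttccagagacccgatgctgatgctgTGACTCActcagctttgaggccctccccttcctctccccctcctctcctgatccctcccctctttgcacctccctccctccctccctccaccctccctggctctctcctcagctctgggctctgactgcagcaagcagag

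The Col6a1 window held an AP-1 match 90 bases before the start site, and the Col6a2 window held a TEAD match 115 bases before its start site and 3 GC boxes, of which the nearest pair overlap each other. Of all windows, 7.81% held an AP-1 match and 14.7% a TEAD match. A second listed Col6a2 window held 1 GC box and neither of those motifs. Of the 10 windows listed for 8 of the genes, 6 held a GC box, 1 an AP-1 match, 2 a TEAD match, and none the TATA box TATAAA or the CArG box bound by serum response factor. These motifs were found in 13.6% and 1.63% of all windows, and no match overlapped a match to another motif in the 10 windows. A match describes letters only and says nothing of binding.

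Collagen XVIII, encoded by Col18a1, carries heparan sulfate chains in basement membranes and is the source of endostatin, a fragment that inhibits endothelial growth. Col18a1 (TC1000002418.mm.1, chromosome 10) was at 10.50, 10.50 and 10.34 in wildtype and at 9.78, 9.59 and 9.74 in knockout. All 3 knockout arrays lay below all wildtype arrays, and both lines were above the background range. It fell by 0.74 on the log2 scale (SE 0.07, limma adjusted p = 0.00149; 95% confidence interval of knockout over wildtype 0.530 to 0.677). The other multiplexin gene, Col15a1 (TC0400000518.mm.1, chromosome 4), whose product lies between basement membranes and the fibrils beneath them, was at 7.30, 7.03 and 7.10 in wildtype and at 7.10, 7.13 and 7.10 in knockout. Wildtype and knockout overlapped inside the background range, with a log2 difference of -0.03 (95% confidence interval -0.22 to 0.15, limma adjusted p = 0.897).

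Col18a1 has more than 1 start site, known for transcripts with short and long N-terminal parts, and the table lists 2 windows. Both are shown because it is not known here which of these transcripts the probe set reads. The upstream one is at chr10:77166481-77166780 and the downstream one at chr10:77113656-77113955, both on the minus strand of GRCm38.p6, with GC boxes and TEAD matches in capitals.

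Col18a1 upstream: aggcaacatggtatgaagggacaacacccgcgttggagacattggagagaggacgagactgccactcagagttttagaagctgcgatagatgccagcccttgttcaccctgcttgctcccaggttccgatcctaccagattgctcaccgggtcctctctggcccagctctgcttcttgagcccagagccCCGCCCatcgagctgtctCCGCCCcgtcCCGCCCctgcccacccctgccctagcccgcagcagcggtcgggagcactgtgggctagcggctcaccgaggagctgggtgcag
Col18a1 downstream: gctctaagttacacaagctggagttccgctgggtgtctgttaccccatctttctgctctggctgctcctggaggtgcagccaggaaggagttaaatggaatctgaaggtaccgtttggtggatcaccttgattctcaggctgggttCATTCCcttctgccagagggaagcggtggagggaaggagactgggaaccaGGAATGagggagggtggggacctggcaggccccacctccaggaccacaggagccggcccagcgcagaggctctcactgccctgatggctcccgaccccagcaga

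The upstream window held 3 GC boxes and no TEAD match. The downstream window held 2 TEAD matches, beginning 104 and 54 bases before the start site, and no GC box.

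Col6a2, Col6a1 and Col18a1 lie on 1 stretch of chromosome 10, with the RNA-binding protein gene Pcbp3 and the folate transporter gene Slc19a1 as the 2 measured protein-coding genes between Col6a1 and Col18a1. Pcbp3 did not pass (log2 difference 0.11, limma adjusted p = 0.273), and Slc19a1 rose by 0.43 (SE 0.05, limma adjusted p = 0.00212), from 7.78 ± 0.05 to 8.21 ± 0.02. The rise of Slc19a1 and the fall of Col18a1 are thus changes of opposite direction in adjacent genes. On the outer sides, Ftcd, a folate metabolism gene beside Col6a2, was at -0.03 (adjusted p = 0.911) and Pofut2, a fucosyltransferase gene beside Col18a1, at 0.19 (adjusted p = 0.311). In the stretch from 8 measured genes before Col6a2 to 8 after Col18a1, 3 of the 18 genes that are not collagens passed, Slc19a1 up and, chosen after their values were seen, Adarb1 (-0.28) and Pttg1ip (-0.20) down. The share of all genes that passed was 12.0%. The median difference of the brighter protein-coding genes of chromosome 10 was 0.02.

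**Figure D3:**
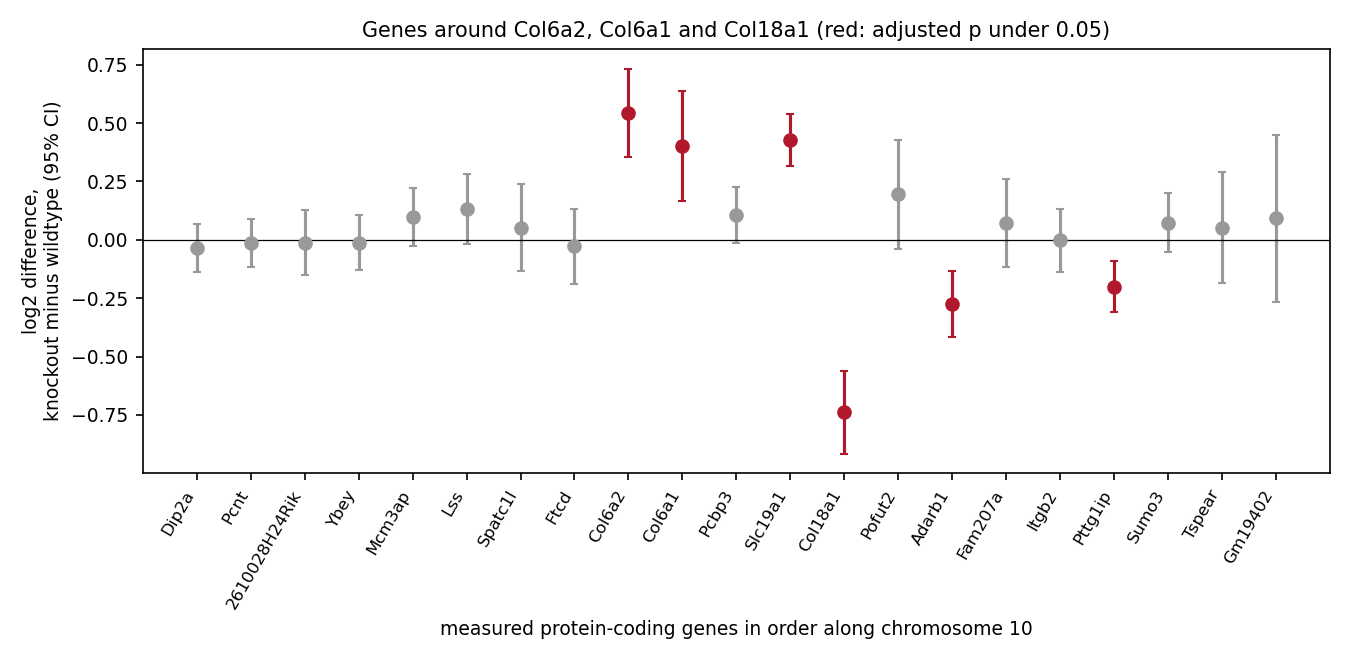
Log2 difference with limma 95% confidence interval (vertical axis) of 21 measured protein-coding genes in their order along chromosome 10 (horizontal axis, order only), red where the adjusted p is under 0.05. Col6a2 and Col6a1 are positive, Slc19a1 (0.43) is positive and the adjacent Col18a1 (-0.74) is negative.

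Around the other risen genes, no neighbour rose. Col12a1 rose between 2 genes that fell, the surface antigen gene Cd109 (-0.80, limma adjusted p = 0.00269) and the respiratory chain gene Cox7a2 (-0.47, limma adjusted p = 0.00487). Col8a1 lies between Filip1l and Dcbld2, which were at -0.09 and -0.15 and did not pass (limma adjusted p = 0.50 and 0.164). Of all 18 neighbours that are not themselves in the set, 4 passed, the fourth being Pef1 beside Col16a1 (-0.21, limma adjusted p = 0.0452, past the threshold in 6 of 16 alternative settings). Over all genes, 12.0% passed. Cops8 and Mlph beside Col6a3 (-0.27 and 0.05), Trappc3 and Adprhl2 beside Col8a2 (-0.03 and -0.004), Deptor and Mrpl13 beside Col14a1 (-0.26 and 0.16), Galnt12 and Tgfbr1 beside Col15a1 (-0.02 and -0.05) and Adgrb2 beside Col16a1 (-0.05) did not pass.

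The other collagen genes give the setting. None of the 16 measured non-fibrillar genes outside this set and type IV passed by limma, and none had an unadjusted p under 0.05. Their log2 differences ran from -0.04 to 0.03, and 14 of the 16 lay within the background range in both lines. Of 11 fibrillar genes, 3 rose, Col5a2 by 3.79 from a wildtype mean within the background range, Col1a1 by 3.03 and Col5a1 by 0.36, and 8 did not pass, with a median of 0.04. Of 6 type IV genes, Col4a2 and Col4a1 rose by 2.56 and 2.19, Col4a6 changed by -1.02 and, outside the naming rule, Col4a5 by -0.98, and 2 did not pass. Col4a5 and Col4a6 lie on the X chromosome, where the median difference of the brighter protein-coding genes was -0.21. With chromosome medians taken off, Col4a6 was at -0.81 and still passed. The share called was 27.3% of the fibrillar and 66.7% of the type IV genes, beside 12.0% of all genes. A group mean above the background range was found for 5 of the 11 fibrillar genes, including the 3 that rose, and for all 6 type IV genes. Among all genes of that class, 24.9% were called. These lists were compared by counts only, and no difference between the families was tested.

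**Figure D4:**
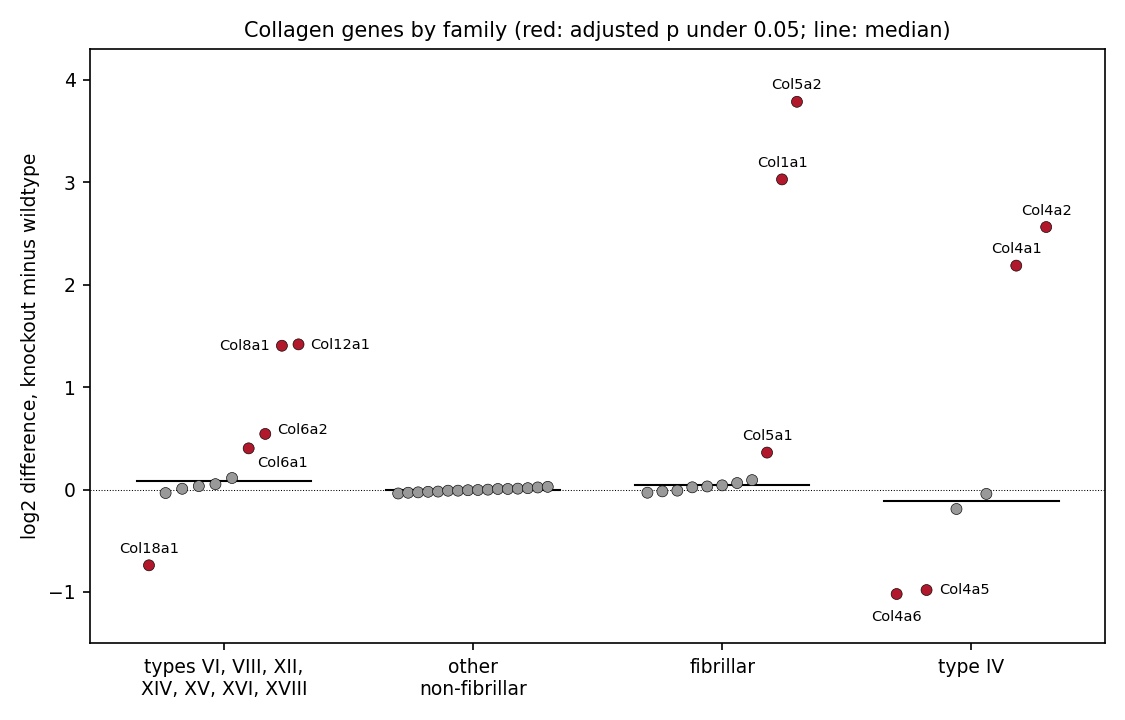
Log2 difference between knockout and wildtype (vertical axis) of the collagen genes in 4 families (horizontal axis), red where the adjusted p is under 0.05, with the family median as a line. The 10 genes described here include 4 risen genes and Col18a1 below 0, the 16 other non-fibrillar genes lie between -0.04 and 0.03, and Col5a2 (3.79, with wildtype in the background range) and Col1a1 (3.03) are the topmost points drawn.

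Receptors that bind these collagens or their fragments went in both directions. The list of 18 held 5 that rose, 3 that fell and 10 that did not pass, and its median was 0.04. That is 44.4% called, beside 12.0% of all genes. A group mean above the background range was found for 10 of the 18, and 24.9% of all genes in that class were called. Outside the naming rule, the calls of Itga2 (down) and Itgb3 (up) lay within the background range in both lines. Antxr1, a surface receptor that binds collagen VI, rose from 6.38 ± 0.15, within the background range, to 9.10 ± 0.26, a log2 difference of 2.72 (SE 0.14, limma adjusted p = 0.000122). Its wildtype arrays and knockout arrays did not overlap. Gpc4, a glypican, changed by -1.05 (SE 0.05), from 11.47 ± 0.05 to 10.42 ± 0.06. The gene lies on the X chromosome, whose median difference was -0.21, and was at -0.83 with chromosome medians taken off. Itga5, a chain of the fibronectin receptor, rose by 0.80 (SE 0.08).

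Genes for collagen folding, modification and export formed a list of 21, of which 18 had a group mean above the background range. In it 3 rose and 1 fell, 17 did not pass, and its median was 0.06. Its share called was 19.0%, beside 12.0% of all genes and 24.9% of genes above the background range. Creb3l1, a transcription factor that drives collagen secretion genes, rose by 0.93 (SE 0.10), the lysyl hydroxylase gene Plod1 by 0.46 (SE 0.08) and, outside the naming rule, the collagen chaperone gene Serpinh1 by 0.25. Mia2, of the machinery that exports large cargo from the endoplasmic reticulum, changed by -0.46 (SE 0.07), and by -0.27 with the mean of all its probe sets, where the call held. The Plod1 call was lost without wildtype replicate 1 (limma adjusted p = 0.0580) or wildtype replicate 3 (0.0797). The count of 4 called was 2 without wildtype replicate 3.

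Extracellular partners of these collagens were also counted. In the list of 20, whose median was 0.35, 10 rose and 2 fell, and the remaining 8 did not pass. A group mean above the background range was found for 13 of the 20. These calls stand beside 12.0% of all genes called and 24.9% of genes with a group mean above the background range. Dcn, encoding decorin, which binds collagen fibrils and collagen VI, rose by 4.33 (SE 0.07), the fibulin gene Fbln2 by 3.08 (SE 0.05) and Nid1, a basement membrane linker, by 2.18 (SE 0.11). In wildtype, Dcn and Nid1 lay below the highest background probe set. Fallen genes, outside the naming rule, were the fibronectin gene Fn1 (-0.57) and Hspg2 (-0.57), which encodes perlecan. Agrn, also in the list, was not among the fallen genes. Among 18 genes for proteases of matrix, including those that release collagen fragments, 6 rose, 3 fell and 9 did not pass (median 0.03). Only 7 of the 18 had a group mean above the background range, and the same shares of 12.0% and 24.9% stand beside their calls. Mmp13 rose by 1.31 (SE 0.07) within the background range, the membrane-bound Mmp14 rose by 0.82 (SE 0.06), and Mmp2, a gelatinase that Mmp14 activates, changed by -1.01 (SE 0.06). The count of 9 called was 5 without knockout replicate 1 or knockout replicate 2.

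Some markers of other cell types passed the test, beside 12.0% of all genes. Of 6 mesangial and pericyte markers, Pdgfrb (2.36, from the background range) and Tbx18 (0.34) rose and 4 did not pass, and the mean log2 intensity of the list ran from 7.13 to 7.26 over wildtype arrays and from 7.64 to 7.69 over knockout arrays. Itga8, Des, Cspg4 and Rgs5 of that list stayed within the background range. Of 7 fibroblast markers, Dcn and Col1a1, which also stand in lists above, rose, the list mean being 6.64 to 6.82 in wildtype and 7.80 to 7.82 in knockout, and Lum, Dpt, Col1a2, Pi16 and Meox1 lay within the background range. Of 8 tubular markers 4 fell, among them Aqp1 (-3.50) and Cdh16, with list means of 8.73 to 8.85 and 8.03 to 8.09. Of 8 parietal epithelial markers Cd24a rose and Cldn1 and Pax8 fell, of 8 macrophage markers Cd68 rose and Csf1r fell, and of 8 endothelial markers Ehd3 fell, with 7 of the 8 endothelial genes, Pecam1 and Cdh5 included, inside the background range throughout. The list means were 8.86 to 8.97 and 8.74 to 8.80 for parietal, 6.93 to 7.07 and 6.88 to 6.98 for macrophage, and 6.60 to 6.72 and 6.58 to 6.60 for endothelial markers. The part of these markers in the collagen changes was not tested.

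The calls for the collagen genes differed in how firmly they held. Col12a1, Col8a1, Col18a1 and Col6a2 passed in all 16 alternative settings, with adjusted p up to 0.00211, 0.00200, 0.0119 and 0.0421. Their log2 differences ran from 1.37 to 1.48 for Col12a1, from 1.36 to 1.53 for Col8a1, from -0.79 to -0.68 for Col18a1 and from 0.49 to 0.62 for Col6a2. Col6a1 passed in 7 of the 16, with log2 differences from 0.30 to 0.48. The other 5 genes passed in none of the settings in which they were tested.

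**Figure D5:**
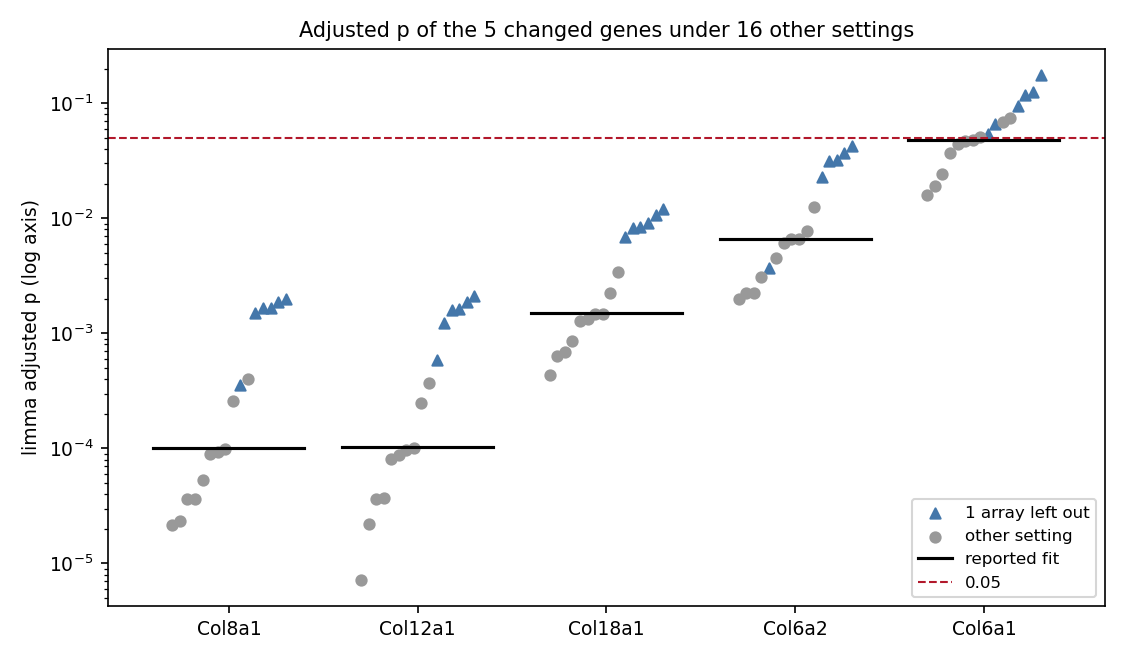
Limma adjusted p (vertical log axis) of the 5 changed genes (horizontal axis) in the reported fit (black line), with 1 array left out (triangles) and under other settings (circles), against 0.05 (dashed). All points of Col8a1, Col12a1, Col18a1 and Col6a2 lie below the dashed line, and 9 of 16 points of Col6a1 lie above it.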

How the data were processed

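Total RNA from 3 wildtype and 3 knockout samples was extracted with Trizol and biotin-labelled for Affymetrix arrays, per the labels' protocols. The values deposited by the authors are intensities of probe sets on a log2 scale, and the submitters' processing notes name affy 1.44.0 and RMA for them. Probe definition file, build and filters: not given in the sources used here. RMA compresses differences near background. Of 72688 probe sets, 31258 named 1 gene in the platform annotation, counting old and new symbols of a gene as 1, and 1492 named several and were not used. Symbols were updated through a table of assembly GRCm38.p6, which held 30700 of the 30702 genes. Where a gene had more than 1 probe set (441 genes), the brightest over the 6 arrays was kept. Listed genes without such a probe set (Col7a1, Itga1, Plod3, Fkbp10, Adamts2, Gata3, Ren1 and Pdgfra, among others) were not analysed here.

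Both groups entered a limma 3.58.1 fit (R 4.3.3, lmFit and eBayes, two-sided, no covariate, no filter), with Benjamini-Hochberg adjustment over all genes at 0.05. SDs are over 3 arrays, and the number of arrays limits precision. Chain pairs were compared by an exact permutation test with scipy 1.17.1. Plots used matplotlib 3.10.9 (Python 3.11.15). The scripts were tested on simulated data.

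The genes and lists were chosen with earlier results of these data known, so lists are described by counts and medians without a test. Text names all 10 genes, up to 3 called genes with the largest change per list, the 5 profiles nearest to the most changed gene and the nearest measured neighbours. The motifs, the stretch of chromosome 10 and genes marked as outside the rule were chosen after values were seen. Leaving out each array, a replicate block, other variance priors, scalings, filters, probe set rules and a threshold of 0.01 were tried as alternatives. The planned counts from protein sequences were not run.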

Additional observations from a re-analysis of the deposited data

How the results depend on the processing

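The number of the 10 collagen genes that passed was 4 or 5 in all 17 alternatives, and in the 10 alternatives with 4 the missing gene was Col6a1. The count over all genes ranged from 2079 to 3388 with 1 array left out and was 1948 at an adjusted p under 0.01. At that threshold, 2 genes of the folding and export list and 5 of the protease list passed, and with 1 array left out these counts ranged from 2 to 4 and from 5 to 7. The replicate numbers were not taken to pair the lines, because the labels do not say that they do. Deviations of same-numbered arrays from their line means correlated at 0.35, 0.28 and 0.04 across genes. In all, 5 of 6 arrays correlated best with their own number, and knockout replicate 3 correlated best with wildtype replicate 2 (0.05). Deviations from a line mean cancel within the line, so these matches are not independent and cannot decide whether the arrays are paired. With the replicate block, 3765 genes and 4 of the collagen genes passed, Col6a1 missing at a limma adjusted p of 0.0685. Genes near 0 changed sign. With 1 array left out, Col6a3 ranged from -0.017 to 0.077, Col8a2 from -0.023 to 0.063, Col15a1 from -0.090 to 0.045, Ftcd from -0.078 to 0.034 and Mlph from -0.024 to 0.11. Filip1l was at 0.033 with chromosome medians taken off and Adprhl2 at 0.012 with quantile normalization repeated. None of these passed. The difference in change between Col6a1 and Col6a2 kept its sign in the 9 alternatives run for it and ranged from -0.22 to -0.047 with 1 array left out. Signal over background limits what can be said of Col6a3, Col8a2, Col14a1 and Col15a1, for which a change inside the background range could be compressed.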
